A study of Mus musculus with 30 samples.

Results

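Scleraxis (Scx), tenomodulin (Tnmd) and mohawk (Mkx), 3 genes of tendon, and 7 small leucine-rich proteoglycans, namely decorin (Dcn), lumican (Lum), fibromodulin (Fmod), biglycan (Bgn), osteoglycin (Ogn), asporin (Aspn) and Prelp, were followed through lungs and tracheas of mouse embryos in which Myocd was conditionally deleted. They are 10 of the 53715 genes counted in each of 3 tables, and were found by name, by matching each gene ID without its version to its mouse symbol. The question put to them was how matrix and tendon genes of the airway wall stand when the smooth muscle regulator Myocd is removed. By edgeR 0 of these genes passed the test of mutant against control in E13.5 lung, E18.5 lung or trachea, where 0.206%, 0.584% and 0.071% of all genes tested passed. Levels did differ by stage in control lung, for 9 of 10 against 74.7% of all genes, and by organ in E18.5 controls, for 10 of 10 against 49.1% of all genes.

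Tendons arise from progenitors that express the basic helix-loop-helix factor Scx, and the homeobox factor Mkx acts in their later maturation. Tnmd, a membrane glycoprotein of tendon cells, is one of the genes that depend on Scx. Small leucine-rich proteoglycans are short secreted core proteins that bind collagen fibrils and set their width and spacing. Dcn, Bgn and Aspn form one class, Lum, Fmod and Prelp another, and Ogn belongs to neither. Dcn and Bgn carry chondroitin or dermatan sulfate chains and also bind TGF-beta, whereas Lum and Fmod carry keratan sulfate. In the trachea, such proteins lie in the cartilage rings, the perichondrium and the fibrous tissue between rings.

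Libraries came from single lungs or tracheas, which TruSeq V2 chemistry turned into single reads of 75 bases, without strand. Mutants were Tbx4rtTAi/+; tetOcrei/+; MyocdF/F, so that a doxycycline-dependent Cre under Tbx4 was to remove both floxed Myocd alleles in lung and tracheal mesenchyme. Controls were Tbx4rtTAi/+; tetOcrei/+; MyocdF/+ and thus carried 1 floxed allele and the same transgenes, except E13.5 control 1, labelled MyocdF/F without transgenes. There were 5 mutant and 5 control lungs at E13.5, with the lobes of both sides; 6 mutant and 4 control lungs at E18.5, from the right side; and 6 mutant and 4 control tracheas at E18.5. The sources used here do not give when doxycycline was started.

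Total counts were 17.43 to 27.94 M reads in mutant and 23.46 to 28.45 M in control E13.5 lungs, 19.86 to 30.37 M in mutant and 24.85 to 32.84 M in control E18.5 lungs, and 12.38 to 30.02 M in mutant and 11.74 to 30.47 M in control tracheas. Levels are read counts scaled to library size (CPM) on library sizes scaled by TMM over all 30 libraries, and a gene passed at an adjusted p under 0.05. Myocd, counted over its whole gene so that a deleted exon need not lower the count, had 6.74 to 13.04 CPM in mutant and 10.1 to 18.8 CPM in control E13.5 lungs, and its adjusted p by edgeR was 0.998 there, against 0.651 in E18.5 lungs and 0.911 in tracheas. Its unadjusted p was 0.247, 0.113 and 0.577 in the same order, and its adjusted p by DESeq2 0.9999, 0.618 and 0.885, so that the counts do not check the deletion. Of 10 contractile smooth muscle genes, edgeR called 5 lower in mutants at E13.5, 2 in lungs at E18.5 and 3 in tracheas, and DESeq2 called 5, 4 and 7. In the same order edgeR called 0.206%, 0.584% and 0.071% of all genes in either direction. DESeq2 called 79 of 32890, 262 of 30420 and 99 of 32202 genes with any read. Lung epithelium and cartilage markers fitted the labels, with lung epithelium genes summing to 13142 to 16874 CPM in mutant and 14443 to 16687 CPM in control E18.5 lungs, and 15 cartilage genes to 5260 to 17310 CPM in mutant and 14754 to 22180 CPM in control tracheas. Tracheas also held RNA of other tissues in widely varying amounts. Thyroid genes, 6 in all, summed to 17.5 to 550 CPM in mutant and 5.64 to 631 CPM in control tracheas. Skeletal muscle genes, 16 in all, summed to 26.5 to 3573 CPM in mutant and 46.6 to 3020 CPM in control tracheas. Mutant trachea 4 and control trachea 2 stood apart: they had the fewest reads and the lowest mean correlation with their own group, 0.921 and 0.920, against 0.952 to 0.965 for the other tracheas. In bulk tissue, fewer cells of a type and less RNA per cell cannot be told apart.

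Several members are neighbours in the genome, and all positions here are GRCm38. Fmod (chromosome 1, 134037254 to 134048277, plus strand) and Prelp (chromosome 1, 133910304 to 133921414, minus strand) lie 115.8 kb apart, with Optc, another gene of the family, 2.305 kb beyond Prelp. Dcn (chromosome 10, 97479609 to 97518143) is followed by Lum (97565128 to 97572703), Kera and Epyc on the same strand. On chromosome 13 Ecm2, Aspn (49544443 to 49567565), Omd and Ogn (49608046 to 49624501) form a cluster as well, all of it inside the larger antisense gene Cenpp. Bgn (chromosome X, 73483602 to 73495933), Tnmd (chromosome X, 133850980 to 133865577) and Mkx (chromosome 18, 6910459 to 7004780) stand apart from other members.

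Scx (chromosome 15, 76457452 to 76459458, plus strand) lies wholly within intron 3 of Bop1 (76456027 to 76466771), a ribosome biogenesis gene on the minus strand. The Scx exons as counted span all 2007 bases of the gene, including the 895-base intron of its coding transcript. Without strand, reads from unspliced Bop1 RNA and from Scx cannot be told apart there. Bop1 had 87.3 to 106 CPM in mutant and 91.8 to 95.7 CPM in control E13.5 lungs, 32.0 to 45.7 CPM in mutant and 35.1 to 45.5 CPM in control E18.5 lungs, and 27.0 to 56.0 CPM in mutant and 27.7 to 32.2 CPM in control tracheas. Scx stood at 5.44% to 31.5% of Bop1 over all libraries. With group means removed, log2 levels of Scx and Bop1 had a Pearson r of 0.115 and a Spearman rho of 0.228 over 30 libraries, which share depth and tissue.

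**Figure D1:**
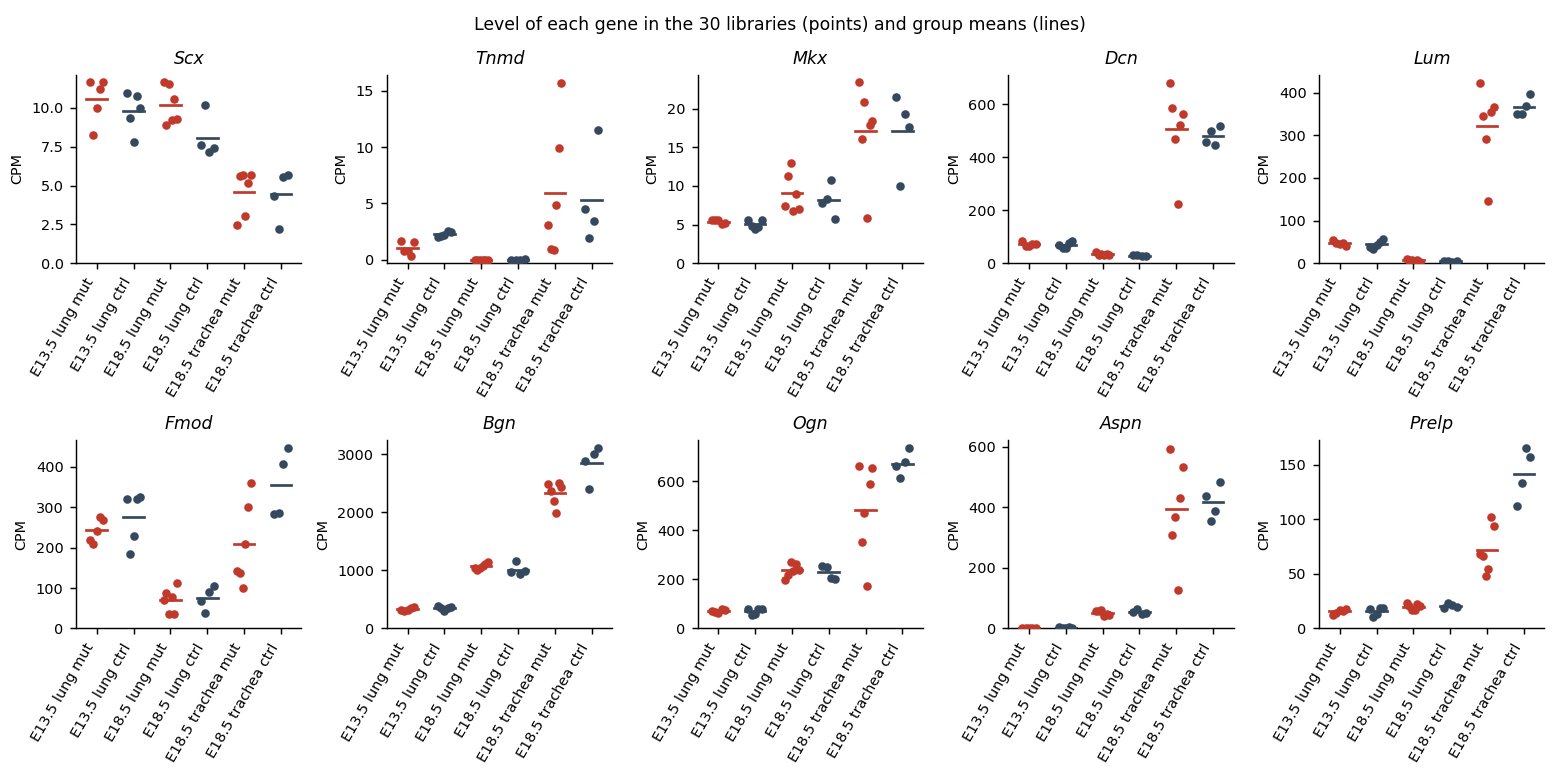
Level of each of the 10 genes in CPM (vertical axes from 0, except a small margin below 0 for Tnmd) in every library of the 6 groups, mutants in red and controls in dark blue, with a line at each group mean. Dcn, Lum, Bgn, Ogn, Aspn, Prelp and Mkx had their highest group means in the tracheas, Tnmd was at or next to 0 in the E18.5 lungs, and in the tracheas all 6 mutant Prelp values lay below all 4 control values.

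Scaled by exon length, the 10 genes spanned a wide range of levels. That length takes all annotated exons of a gene together, 6099 bases for Bgn, 5838 for Dcn and 3306 for Fmod. It need not be the length of the main transcript, so the order of genes depends on the annotation. In E13.5 lung Fmod led, at 73.5 ± 8.80 CPM per kb in mutants and 83.3 ± 19.7 CPM per kb in controls (SD, n = 5 each). Bgn came next there, at 54.2 ± 5.35 CPM per kb in mutants and 57.9 ± 5.03 CPM per kb in controls, and its library range overlapped that of Fmod in controls but not in mutants. Without length scaling Bgn stood above Fmod in E13.5 lung, at 331 against 243 CPM in mutants and 353 against 275 CPM in controls. In E18.5 lung Bgn led, at 175 ± 7.43 CPM per kb in mutants (n = 6) and 166 ± 17.1 CPM per kb in controls (n = 4), ahead of Ogn at 92.4 ± 10.8 and 89.3 ± 11.04 CPM per kb, with no overlap between these 2 genes. Aspn and Fmod followed at 22.2 ± 3.19 and 21.1 ± 9.05 CPM per kb in mutants, with overlapping ranges.

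In the tracheas Bgn and Ogn again led, at 381 ± 33.3 and 189 ± 74.9 CPM per kb in mutants (n = 6), against 466.2 ± 51.0 and 262 ± 19.6 CPM per kb in controls (n = 4). Aspn, Lum, Fmod and Dcn held the middle of the order and Prelp came seventh. The 3 tendon genes were lowest: Tnmd at 4.35 ± 4.31, Mkx at 4.35 ± 1.55 and Scx at 2.29 ± 0.73 CPM per kb in mutants, with overlapping neighbours, and at 3.95 ± 3.12, 4.36 ± 1.27 and 2.22 ± 0.82 CPM per kb in controls. Per length of exon, the mean levels of the tracheal tendon genes thus stood below those of the proteoglycans.

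**Figure D2:**
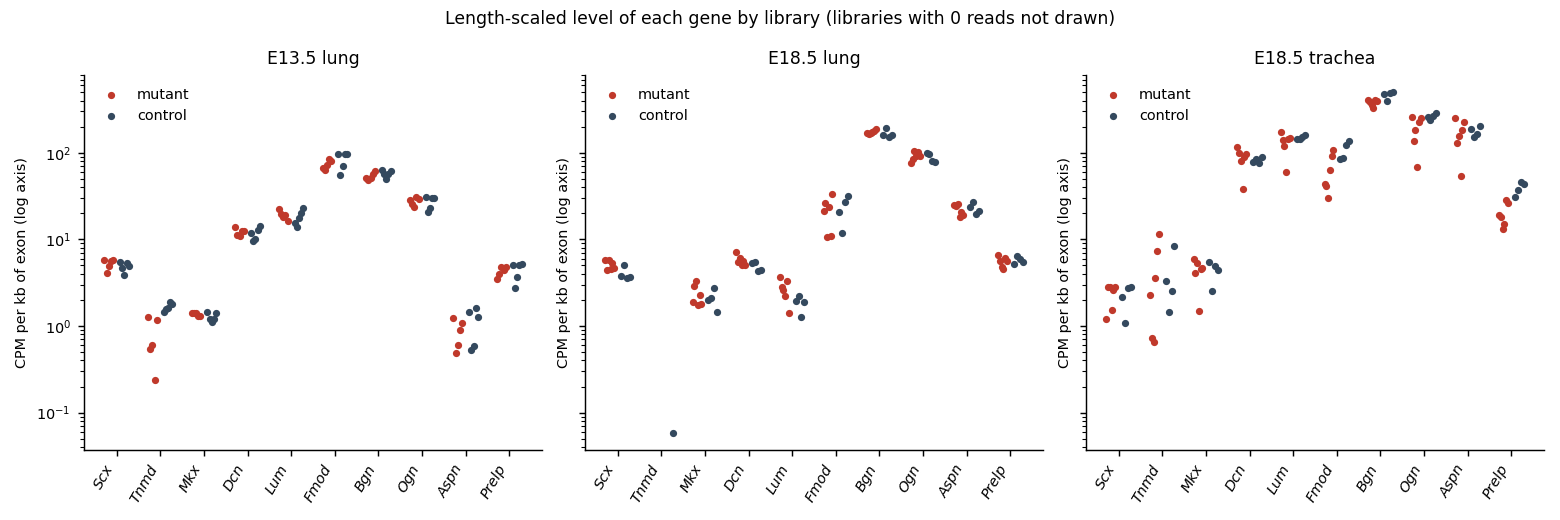
CPM per kb of exon (log axis) of each gene in every library of E13.5 lung, E18.5 lung and E18.5 trachea, mutants in red left of controls in dark blue; libraries with 0 reads are not drawn. Fmod and Bgn were the highest of the genes at E13.5, Bgn and Ogn at E18.5, and Scx, Tnmd and Mkx lay at the low end in the tracheas.

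At E13.5, before alveolar differentiation, 0 of the 10 members passed between mutant and control lung by edgeR, where 0.206% of 16486 genes passed; DESeq2 also called 0, and 1 member had an unadjusted p under 0.05, a level that 3.57% of genes reached. Without E13.5 control 2 that last count was 2. The median log2 difference was 0.01 over the members and 0.01 over all genes, with 5 members above 0 and 5 below. That single member was Tnmd, at 1.71, 0.743, 0.818, 0.320 and 1.59 CPM in the mutants, against 1.98, 2.13, 2.21, 2.57 and 2.44 CPM in the controls. Every mutant lay below every control, a separation in that direction that 0.704% of genes showed. The Tnmd values rest on 9 to 42 reads in mutants and 53 to 68 in controls. Its log2 difference was -1.16 ± 0.33 (SE) and its adjusted p by edgeR 0.561, from -0.91 to -1.41 as single libraries were left out.

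The transcription factors of tendon showed no such shift at E13.5. Scx had 11.7, 8.25, 9.97, 11.2 and 11.7 CPM in mutants, against 10.99, 9.33, 7.79, 10.8 and 10.01 CPM in controls, overlapping ranges with a log2 difference of 0.11 ± 0.12. Mkx ran from 5.08 to 5.57 CPM in mutants and from 4.37 to 5.63 CPM in controls. Among the proteoglycans, Fmod had 220.1, 210.2, 241, 277 and 268 CPM in mutants, against 320.0, 183, 229.8, 319.6 and 324 CPM in controls. Controls were thus more spread than mutants, and the Fmod difference of -0.17 ± 0.15 fell short of the test (adjusted p = 0.998 by edgeR). The other 6 proteoglycans differed by -0.35 (Aspn, at 1.16 to 2.89 CPM in mutants and 1.26 to 3.82 CPM in controls) to 0.10 (Lum) on the log2 scale.

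At E18.5, 9 members could be tested in lung, and 0 passed by edgeR, where 0.584% of 17467 genes passed. DESeq2 also called 0, and 3 members, Scx, Dcn and Lum, had an unadjusted p under 0.05, which 9.41% of genes had. That count of 3 rested on single libraries: it was 0 without control 3, control 4, mutant 1 or mutant 3, 1 without control 1 or mutant 5, 2 without mutant 2 and 4 without control 2. Tnmd was left out by the filter on low counts: it had 0 reads in all 6 mutants and 0, 0, 0 and 2 reads in the controls. No member separated mutants from controls, against 2.42% of genes that did in either direction.

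All 3 of these stood higher in mutant lungs without passing. Scx had a lowest value of 8.89, a median of 9.94 and a highest of 11.7 CPM in mutants, against 7.60, 10.2, 7.15 and 7.40 CPM in controls. Control 2 alone reached into the mutant range. The Scx difference was 0.34 ± 0.15 (adjusted p = 0.482 by edgeR). Dcn had 29.5, 32.5 and 41.8 CPM as lowest, median and highest in mutants, against 30.9, 31.7, 25.1 and 26.1 CPM in controls, a difference of 0.25 ± 0.11 (adjusted p = 0.494 by edgeR). Lum, which shares with Fmod a binding site on collagen, had 3.44, 6.68 and 8.89 CPM in mutants, against 4.82, 5.46, 3.09 and 4.69 CPM in controls, a difference of 0.53 ± 0.24 (adjusted p = 0.505 by edgeR). In each of the 3 the ranges overlapped.

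The abundant proteoglycans of E18.5 lung were close between genotypes. Bgn averaged 1067 ± 45.3 CPM in mutants (SD, n = 6) and 1012 ± 105 CPM in controls (SD, n = 4), a log2 difference of 0.08 ± 0.07. Ogn, also called mimecan, averaged 237 ± 27.7 CPM in mutants and 229 ± 28.3 CPM in controls. Aspn, which has a run of aspartates in place of attached sugar chains, averaged 52.2 ± 7.51 CPM in mutants and 53.8 ± 7.47 CPM in controls. Fmod was the most variable, at 35.0, 74.4 and 111 CPM as lowest, median and highest in mutants, against 68.3, 39.1, 89.5 and 105 CPM in controls.

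**Figure D3:**
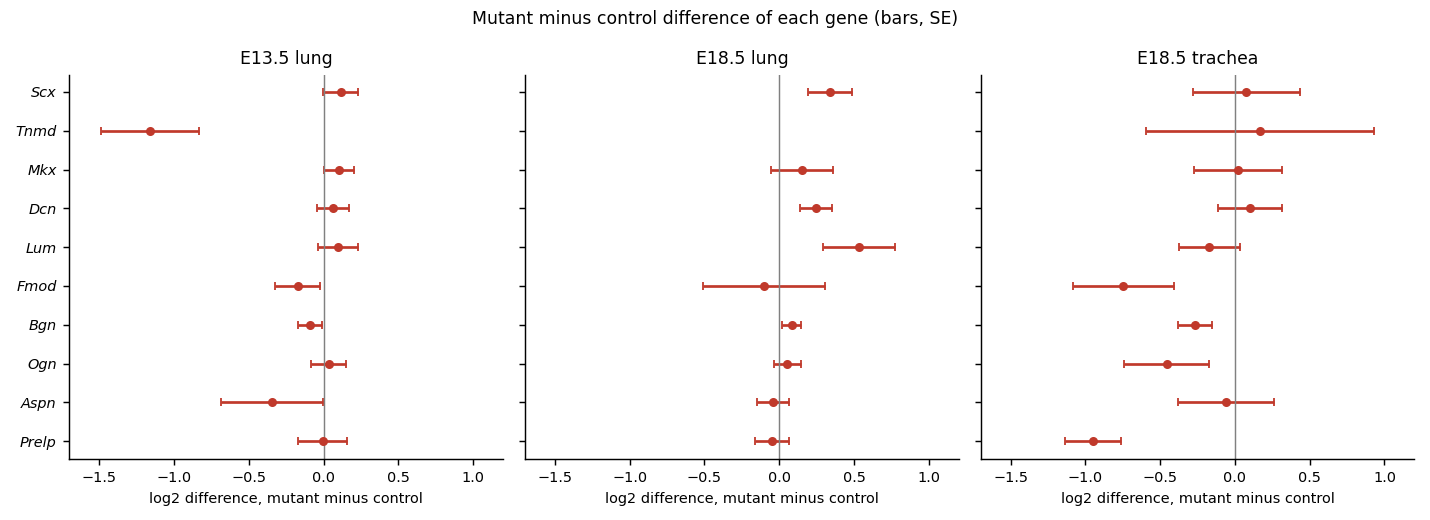
Log2 difference, mutant minus control, of each gene with its SE (horizontal axes) in E13.5 lung, E18.5 lung and E18.5 trachea; Tnmd has no value in E18.5 lung. In the trachea Prelp at -0.95 and Fmod at -0.75 lay farthest below 0, and in E13.5 lung Tnmd at -1.16; none passed the edgeR test.

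In the E18.5 trachea, 0 of 10 members passed by edgeR, where 0.071% of 18315 genes passed. DESeq2 called 1, Prelp (adjusted p = 0.00233), where it called 99 of 32202 genes with any read. By edgeR 3 members, Prelp, Bgn and Fmod, had an unadjusted p under 0.05, which 6.75% of genes had. That count was 1 without control 3 or control 4, and 2 without control 1, control 2 or mutant 1, 2 or 3. All 3 were lower in mutants. The median log2 difference was -0.12 over the 10 members and 0.02 over all genes, with 6 members below 0.

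Prelp, whose protein anchors collagen to basement membranes through a heparin-binding end, had a lowest value of 48.0, a median of 67.6 and a highest of 102 CPM in mutant tracheas, against 112, 133, 165 and 157 CPM in control tracheas. All 6 mutants lay below all 4 controls, as 1.47% of genes did in that direction. The Prelp difference was -0.95 ± 0.19 (SE), with an adjusted p of 0.127 by edgeR and the 25th smallest p of 18315 genes. It ran from -0.85 to -1.06 as single libraries were left out, with adjusted p no lower than 0.0582, and was -0.90 without both shallow tracheas.

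Fmod had 100.5, 176 and 361 CPM as lowest, median and highest in mutant tracheas, against 283, 285, 408 and 446 CPM in control tracheas. Mutants 5 and 6, at 300.4 and 361 CPM, reached into the control range and the other 4 did not. The Fmod difference was -0.75 ± 0.34 (adjusted p = 0.733 by edgeR). Lum, of the same class as both, had 145, 350 and 422 CPM as lowest, median and highest in mutants, against 351, 349, 369 and 396 CPM in controls. Mutant 4, one of the shallow libraries, held the lowest value, and the Lum difference was -0.17 ± 0.21.

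Cartilage genes moved with Prelp and Fmod. The 15 cartilage genes, which include the cartilage collagens and aggrecan, summed to 8297, 6197, 5260, 7983, 16672 and 17310 CPM in mutant tracheas 1 to 6, against 14754, 17049, 22180 and 21932 CPM in control tracheas 1 to 4. By edgeR 0 of 15 passed and 9 had an unadjusted p under 0.05, which 6.75% of all genes had. DESeq2 called 2, Acan and Matn3, where it called 99 of 32202 genes. All 15 differences were below 0, and their median was -0.84 on the log2 scale, against 0.02 over all genes. Per 1000 CPM of cartilage genes, Prelp stood at 8.28, 10.7, 9.13, 6.83, 6.11 and 5.44 CPM in mutants, against 7.59, 7.83, 7.45 and 7.16 CPM in controls, so that the mutants spread to both sides of the controls. Fmod stood at 17.2, 22.0, 19.1, 26.1, 18.02 and 20.8 CPM per 1000 CPM of cartilage genes in mutants, against 19.2, 16.7, 18.4 and 20.4 CPM in controls, also overlapping. Mutants 5 and 6 had cartilage sums within the control range, with Fmod in the control range and Prelp, at 102 and 94.2 CPM, below it. The part of cartilage in the Prelp and Fmod values was not tested.

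**Figure D4:**
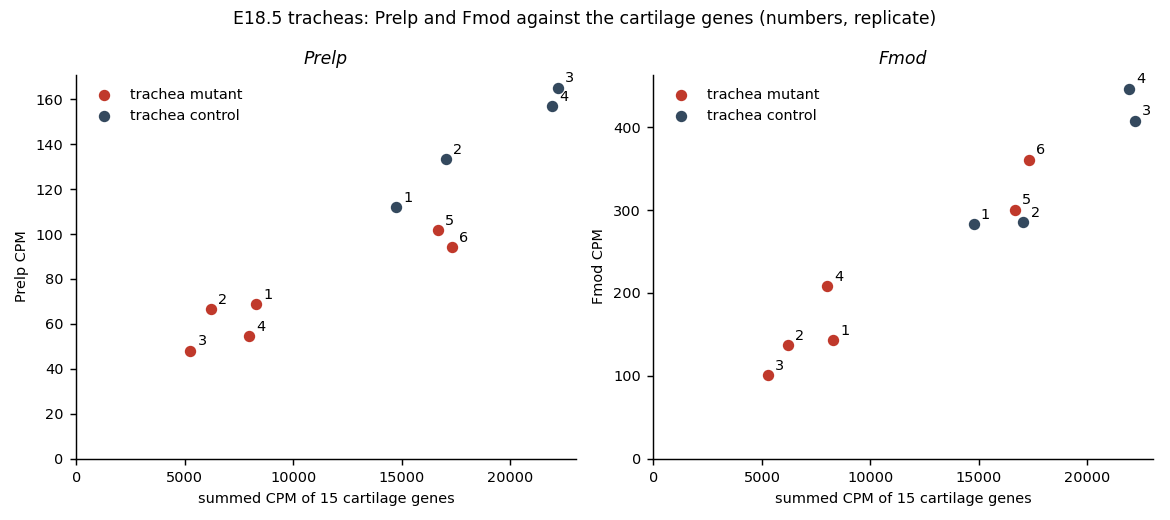
CPM of Prelp (left) and Fmod (right) in each E18.5 trachea on the vertical axes, against the summed CPM of 15 cartilage genes on the horizontal axes; numbers are replicates, mutants in red and controls in dark blue, all axes from 0. Mutants 1 to 4 lay low on both axes, and mutants 5 and 6 lay near controls 1 and 2 for Fmod and under them for Prelp.

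The promoters of Fmod and Prelp are shown because these 2 genes had the lowest log2 differences of the 10 between mutant and control trachea. RefSeq windows of 300 bases around the start (GRCm38.p6) were at hand for 6 of the 10 members. Capitals mark each E-box, CANNTG, the kind of site that Scx binds, and each CAGAC or its complement GTCTG, the short motif of Smad proteins in TGF-beta signalling. The pattern CANNTG reads the same on both strands, though its inner letters need not, and no marked motifs overlap. They are Fmod at chr1:134037004-134037303, plus strand, and Prelp at chr1:133921352-133921651, minus strand.
Fmod: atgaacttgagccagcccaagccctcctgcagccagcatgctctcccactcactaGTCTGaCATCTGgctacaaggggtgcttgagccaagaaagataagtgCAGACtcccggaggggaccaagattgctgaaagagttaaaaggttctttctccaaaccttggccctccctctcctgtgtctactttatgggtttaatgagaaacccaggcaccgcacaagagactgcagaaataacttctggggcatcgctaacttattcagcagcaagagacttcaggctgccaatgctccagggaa
Prelp: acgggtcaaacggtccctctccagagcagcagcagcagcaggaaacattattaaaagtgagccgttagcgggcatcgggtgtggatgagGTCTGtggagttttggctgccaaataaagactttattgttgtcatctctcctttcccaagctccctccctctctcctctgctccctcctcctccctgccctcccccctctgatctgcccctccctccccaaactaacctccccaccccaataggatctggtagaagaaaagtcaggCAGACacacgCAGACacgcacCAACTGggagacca

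Both windows hold 1 E-box, a motif found in 72.3% of the 32851 promoter windows of that length. Fmod holds 2 Smad motifs and Prelp 3, where 16.2% of windows hold 2 or more and 3.90% hold 3 or more. The other 4 windows, of Tnmd, Bgn, Ogn and Aspn, hold no Smad motif, and 0, 1, 4 and 2 E-boxes. Over all windows, 49.6% hold a Smad motif, 39.6% hold 2 or more E-boxes and 6.49% hold 4 or more. None of the 6 holds a CArG box, the SRF site through which Myocd acts, which 1.63% of windows hold. These matches describe letters and show no binding.

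The remaining tracheal proteoglycans overlapped between genotypes. Bgn, the most abundant, had 1987, 2394 and 2508 CPM as lowest, median and highest in mutants, against 2874, 2399, 2997 and 3104 CPM in controls. Control 2, one of the shallow libraries, was the one control within the mutant range, and the Bgn difference was -0.27 ± 0.11 (adjusted p = 0.725 by edgeR). Ogn averaged 484 ± 192 CPM in mutants (SD, n = 6) and 673 ± 50.2 CPM in controls (SD, n = 4), a difference of -0.46 ± 0.28. Aspn averaged 393 ± 167 CPM in mutants and 415 ± 56.0 CPM in controls, and Dcn 507 ± 155 CPM in mutants and 479 ± 34.0 CPM in controls. The wide mutant spread of Dcn, Lum, Ogn and Aspn had its low end in mutant 4, with the lowest value of all 10 tracheas for each of the 4.

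Tendon genes of the trachea varied widely within genotypes. Tnmd had 3.05, 0.973, 0.878, 4.88, 9.90 and 15.7 CPM in mutants 1 to 6, against 4.47, 1.94, 3.47 and 11.5 CPM in controls 1 to 4. Skeletal muscle genes, 16 in all, summed to 68.0, 41.6, 26.5, 2156, 1110 and 3573 CPM in the same mutants, against 3020, 145, 46.6 and 1165 CPM in the same controls. The tracheas with high Tnmd were also those with much skeletal muscle RNA, whose part in the Tnmd values was not tested. The Tnmd difference was 0.17 ± 0.76 (adjusted p = 0.972 by edgeR), and it ran from -0.42 without mutant 6 to 0.86 without control 4. Scx averaged 4.61 ± 1.47 CPM in mutants and 4.45 ± 1.64 CPM in controls, and Mkx 17.1 ± 6.10 CPM in mutants and 17.1 ± 4.999 CPM in controls. For both, mutant 4 and control 2 were at or near the low end.

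Whether the mutant effect itself differed between tissues or stages was tested by interaction contrasts. Between trachea and lung at E18.5, 0 of 10 members passed by edgeR (0.0252% of 19859 genes did); DESeq2 called 0, and 2, Prelp and Bgn, had an unadjusted p under 0.05, which 6.92% of genes had; as single libraries were left out that count ran from 1, without control lung 3 or control trachea 4, to 3, without mutant lung 6 or mutant trachea 1. The Prelp effect in trachea minus that in lung was -0.86 ± 0.24 (adjusted p = 0.271 by edgeR), and that of Bgn -0.31 ± 0.13 (adjusted p = 0.622 by edgeR). Between E18.5 and E13.5 lung, 0 of 10 passed by edgeR (0.0268% of 18639 genes did), DESeq2 called 0, and 0 had an unadjusted p under 0.05, which 5.85% of genes had. That last count was 1 without E18.5 control lung 2 or without E18.5 mutant lung 6.

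Differences between stages and organs ran over a wider range than those between genotypes. In control lung, E18.5 minus E13.5, 9 of 10 members passed by edgeR, 5 higher and 4 lower, where 74.7% of genes passed, 37.4% higher and 37.3% lower. Stage goes with the table and with the lobes taken, and these cannot be told apart. A count so near that of all genes says little of the members as a set, whose individual changes ran over a wide range.

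Aspn rose most with stage, to 55.2, 63.7, 46.5 and 49.97 CPM in E18.5 control lungs, against 3.41, 1.26, 1.38, 3.82 and 2.96 CPM in E13.5 control lungs. No values overlapped, and the difference was 4.40 ± 0.24 (adjusted p = 6.14e-14 by edgeR). Ogn, of the same cluster on chromosome 13, rose to 256, 252, 207 and 203 CPM, against 78.4, 53.3, 58.7, 78.2 and 77.7 CPM at E13.5, a difference of 1.74 ± 0.12. Bgn rose by 1.53 ± 0.08, to 1012 ± 105 CPM at E18.5 (SD, n = 4), against 353 ± 30.7 CPM at E13.5 (SD, n = 5). Mkx rose by 0.71 ± 0.19 and Prelp by 0.43 ± 0.15. Mutant lungs held like levels, with Aspn at 52.2 ± 7.51 CPM at E18.5 and 2.03 ± 0.73 CPM at E13.5.

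Lum, Fmod, Dcn and Tnmd fell with stage. Lum fell to 4.82, 5.46, 3.09 and 4.69 CPM in E18.5 control lungs, against 37.7, 33.7, 42.9, 49.7 and 57.1 CPM in E13.5 control lungs, without overlap and with a difference of -3.27 ± 0.22 (adjusted p = 1.40e-12 by edgeR). Fmod fell by 1.86 ± 0.33 on the log2 scale and Dcn by 1.25 ± 0.12. Dcn and Lum, adjacent on chromosome 10, thus fell together, while Fmod and Prelp, both on chromosome 1, went opposite ways. The 15 cartilage genes, 13 of them testable, fell in 11 cases and rose in 0 between the same lungs, and summed to 117 to 133 CPM in E18.5 controls, against 442 to 474 CPM in E13.5 controls; their part in the fall of Fmod and Lum was not tested.

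Tnmd all but vanished from the lung, with 2 reads in all 4 E18.5 control libraries, against 299 reads in the 5 E13.5 control libraries. Scaled for depth, the E13.5 level was 132 times the E18.5 level in controls (95% exact Poisson interval 36.3 to 1099, counting error only). In mutants, 0 reads at E18.5 stood against 118 at E13.5, at least 51.2-fold higher at E13.5 with a floor of 3 reads over the E18.5 group. Scx differed by -0.26 ± 0.14 between stages (adjusted p = 0.104 by edgeR). That call was close: without E13.5 control 3 the Scx difference was -0.33 (adjusted p = 0.0456) and without E18.5 control 2 it was -0.39 (adjusted p = 0.0212). Bop1, in whose intron Scx lies, differed by -1.26 ± 0.09 between the same stages (adjusted p = 7.38e-12 by edgeR).

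Between control trachea and control lung at E18.5, 10 of 10 members passed by edgeR, 9 higher and 1 lower in trachea, where 49.1% of genes passed, 24.5% higher and 24.6% lower. Lum had the highest difference of the 9 genes other than Tnmd, whose 2 control lung reads are treated apart, at 351, 349, 369 and 396 CPM in tracheas, against 4.82, 5.46, 3.09 and 4.69 CPM in lungs, a difference of 6.35 ± 0.33 (adjusted p = 1.57e-12 by edgeR). Dcn stood at 457, 499, 444 and 516 CPM in tracheas, against 30.9, 31.7, 25.1 and 26.1 CPM in lungs, a difference of 4.08 ± 0.23. No values overlapped for either gene. Aspn was higher by 2.96 ± 0.31, Prelp by 2.77 ± 0.19, Fmod by 2.25 ± 0.45, Ogn by 1.56 ± 0.26, Bgn by 1.499 ± 0.10 and Mkx by 1.08 ± 0.30. Mkx alone of these 8 had overlapping ranges (47.8% of all genes had none), since control trachea 2 was at 10.02 CPM and control lung 3 at 10.8 CPM. The organs also differ in tissue makeup. Of 15 cartilage genes, 14 were higher in trachea and 0 lower, with a median log2 difference of 8.96. Of 8 genes of dense fibroblasts and adventitia, 5 were higher and 2 lower, with a median of 1.58. The part of tissue makeup in these differences was not tested.

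Scx was the exception, lower in trachea: 4.31, 2.18, 5.58 and 5.71 CPM, against 7.60, 10.2, 7.15 and 7.40 CPM in lungs. The ranges did not overlap, and the difference was -0.84 ± 0.28 (adjusted p = 0.0163 by edgeR). Without control lung 2 it was -0.71 and no longer passed (adjusted p = 0.0640). Bop1 differed by -0.35 ± 0.16 between the same organs (adjusted p = 0.0734 by edgeR). Tnmd, with 555 pooled reads in control tracheas and 2 in control lungs, was 365 times as high in trachea once scaled for depth (95% exact Poisson interval 101 to 3021, counting error only). Control trachea 4 alone held 344 of the 555 reads, and the edgeR difference was 7.92 ± 1.25, or 242-fold. In mutants, 952 reads in tracheas, 489 of them in mutant 6, stood against 0 in lungs, at least 349-fold higher in trachea with the same floor. The part of skeletal muscle RNA, high in the tracheas with high Tnmd, was not tested.

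**Figure D5:**
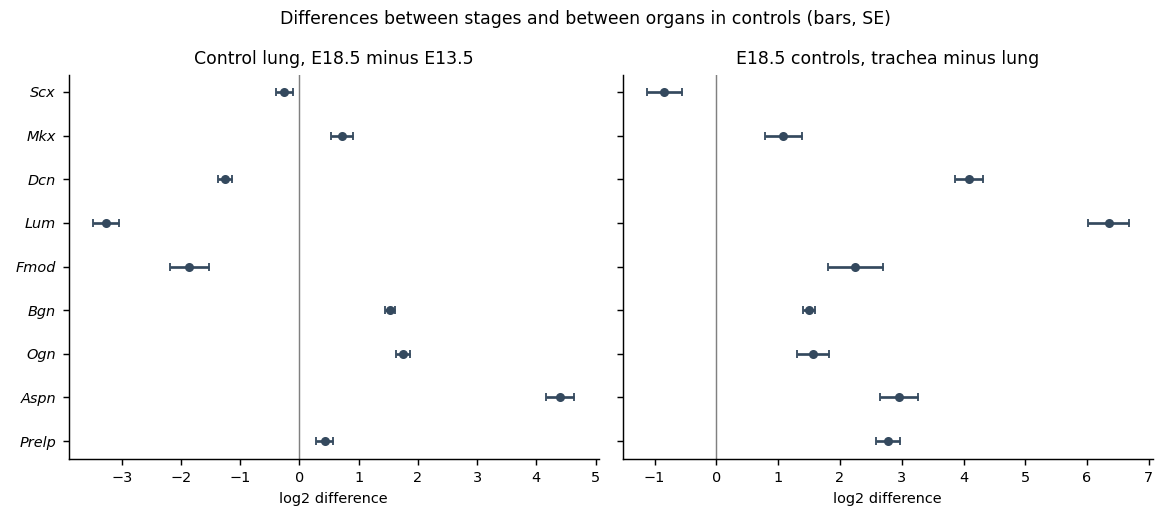
Log2 difference of 9 genes with its SE (horizontal axes) in control lung, E18.5 minus E13.5 (left), and in E18.5 controls, trachea minus lung (right); Tnmd is not drawn since E18.5 lungs had next to no reads. Aspn at 4.40 and Lum at -3.27 lay farthest from 0 between stages, and Lum at 6.35 and Dcn at 4.08 between organs, where Scx at -0.84 alone lay below 0.

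Other genes of the same pathways were read as lists. Of 10 other small leucine-rich proteoglycans, 0 of 6 tested passed between mutant and control in E13.5 lung, 0 of 7 in E18.5 lung and 0 of 10 in the trachea by edgeR, with median log2 differences of -0.06, -0.16 and -0.48. An unadjusted p under 0.05 was reached by 1, 1 and 4 of them, and DESeq2 called 0, 0 and 2, the 2 being Podn and Omd, lower in mutant tracheas. Over all genes, 3.57%, 9.41% and 6.75% reached that p by edgeR in the same order. DESeq2 called 79 of 32890, 262 of 30420 and 99 of 32202 genes. These shares serve for the lists that follow as well. In the trachea the 2 most abundant were Chad, a cartilage protein, at 587 ± 106 CPM in mutants and 765 ± 87.1 CPM in controls (-0.36 ± 0.13), and Ecm2 at 49.97 ± 20.2 CPM in mutants and 71.1 ± 10.04 CPM in controls (-0.49 ± 0.30).

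Of 21 other tendon and ligament genes, 0 of 15, 0 of 17 and 0 of 21 passed by edgeR in the same order of tissues, with medians of 0.00, 0.05 and -0.13. An unadjusted p under 0.05 was reached by 1, 5 and 4, and DESeq2 called 0, 2 (Tppp3 and Thbs2) and 1 (Egr1, lower in mutants). Col14a1, a collagen of fibril surfaces, was the most abundant in each tissue, at 721 ± 172 CPM in mutant and 870.0 ± 128 CPM in control tracheas (-0.25 ± 0.18). Of 10 collagens, fibril-forming ones and type VI chains (Col6a1, Col6a2 and Col6a3), 0 passed by edgeR or by DESeq2 in any of the 3 tissues. Their medians were -0.13, 0.03 and -0.25, and 2, 3 and 1 had an unadjusted p under 0.05. Col3a1, the most abundant, differed by -0.14, 0.08 and -0.11.

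Enzymes that build the sugar chains of proteoglycans, listed with the protease Bmp1 that trims some core proteins, 25 of 26 testable, passed by edgeR in 0 cases in each tissue, with medians of -0.03, 0.03 and -0.11. Of them 1, 2 and 4 had an unadjusted p under 0.05, and DESeq2 called 0, 0 and 1, Chst11, a chondroitin sulfotransferase, lower in mutant tracheas. The 11 genes of TGF-beta signalling (ligands, receptors, Smads and latent binding proteins) passed in 0 cases in each tissue by edgeR or DESeq2, with medians of -0.06, 0.03 and -0.06 and with 0, 4 and 1 at an unadjusted p under 0.05. Between control trachea and lung more genes of these lists passed by edgeR. Over all genes 24.5% were higher and 24.6% lower in trachea. Of those tested, 9 of 10 other small leucine-rich proteoglycans rose and 0 fell, 19 of 21 other tendon and ligament genes rose and 1 fell, and 8 of 10 collagens rose and 0 fell, with medians of 3.28, 2.97 and 1.78. Of the 25 chain enzymes, Bmp1 included, 14 rose and 7 fell, with a median of 0.57. Among TGF-beta genes, 2 of 11 rose and 7 fell in trachea, with a median of -0.53.

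Across the 30 libraries, with group means removed from log2 levels, some members varied together. Ogn and Aspn had a Pearson r of 0.865, Dcn and Aspn 0.859, and Dcn and Lum 0.845, while Fmod stood at -0.18 with Lum and -0.08 with Dcn. Fmod and Prelp had an r of 0.531. Libraries share tissue makeup and depth, and mutant trachea 4 weighs on these values, so they are given as descriptions only. Among 12231 other genes of at least 5 CPM, Dcn was nearest to Lyve1 (0.911), Postn (0.887) and Fibin (0.884). Fmod was nearest to Col11a2 (0.785), Dact2 (0.714) and Sept5 (0.703), and Tnmd to Epyc (0.813), Tnnt3 (0.807) and Matn1 (0.800). Mkx was nearest to Phldb2 (0.889), Abhd13 (0.882) and Pcmtd2 (0.878). Scx was nearest to Zfyve21 (0.755), St6galnac3 (0.751) and Efna2 (0.736).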

How the data were processed

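The authors aligned reads with STAR to GRCm38, per the submitters' processing notes, and deposited raw read counts for each gene from featureCounts 1.6.2 on GENCODE vM17, per the file headers, without strand. Reads overlapping exons of more than 1 gene were not counted, which touches 9.68% of Prelp exon bases (antisense Gm15851) and 0.297% of Aspn exon bases (Cenpp). Of the gene IDs, 53620 matched a symbol in GENCODE vM21.

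From these counts mutants were tested against controls within each tissue by edgeR 4.0.16 (R 4.3.3), with filterByExpr, TMM, a robust quasi-likelihood fit, two-sided, Benjamini-Hochberg over all genes tested. Stage, organ and interaction contrasts used 20 libraries each. Standard errors are the log2 difference over the square root of F. CPM are on TMM-scaled library sizes of all 30 libraries; the log2 scale for likeness used CPM + 0.5. No 2 libraries of the same group were copies (lowest chi-square per degree of freedom 4.11), and pairs across groups were not compared. Libraries are single embryos' organs, so p-values measure spread between embryos; replicates of a genotype may share litters.

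Named genes were the 10 members, up to 4 genes per list past the test or else its 2 most abundant, and the 3 genes nearest to each of 5 members by Pearson r. The members and lists were chosen with earlier results of these data known. Same-numbered E18.5 tracheas and lungs deviated together, with r from 0.158 to 0.287 in controls and from 0.120 to 0.294 in mutants. Differently numbered pairs reached up to 0.168 in controls and 0.162 in mutants. Each trachea correlated best with the lung of its own number except mutant 6, at 0.124 against 0.162 with another number. The labels do not say that same-numbered organs came from the same embryo. Alternatives were DESeq2 1.42.0, other size factors, no low-count filter, a replicate block, each library left out, and, chosen after seeing the data, both shallow tracheas, or E18.5 mutants 5 and 6, left out. The procedure was tested on simulated data.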

Additional observations from a re-analysis of the deposited data

Results flagged for a closer look

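Each gene in each group of 4 to 6 libraries was examined for a library far from the others; 59 gene and group pairs had any spread, and chance alone marks about 1 in 20. In 2 pairs a control E18.5 lung stood out. Scx was 10.2 CPM in control lung 2, where the nearest other control had 7.60 CPM, a gap of 0.849 of the whole range. Tnmd was 0.0796 CPM in control lung 4, from 2 reads, where the other 3 controls had 0. No member's mutant effect passed the test of a difference between tissues or stages.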

How the results depend on the processing

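The count of 0 genes among the 10 past the test between mutant and control held under every alternative run in both lung stages, and the 2 interaction counts of 0 likewise. In the trachea DESeq2 called 1 (Prelp), edgeR without mutants 5 and 6 called 1 (Prelp), and the replicate block called 2: Prelp at -1.22 (adjusted p = 0.0348) and Fmod at -1.26 (adjusted p = 0.0349). The replicate block at E18.5 keeps only the numbers both genotypes have, so it too drops mutants 5 and 6. Those 2 held the highest mutant values of Prelp and Fmod in the trachea, so both fits lower these genes in mutants by the choice of libraries, and their calls lend no support. Across genotypes not every same-numbered pair deviated together. In E13.5 lung r ran from -0.293 to -0.0172, and 0 of 5 correlated best with their own number; in E18.5 lung from 0.0012 to 0.406, with 3 of 4; in the trachea from -0.316 to 0.448, with 2 of 4.

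Counts over all genes moved more. In E13.5 lung 34 genes passed, against 79 by DESeq2, 0 under the replicate block (526 at an unadjusted p under 0.05) and 17 to 56 with single libraries left out. In E18.5 lung 102 passed, against 262 by DESeq2, 192 with no low-count filter, 37 without mutants 5 and 6 and 26 to 205 with single libraries left out. In the trachea 13 passed, against 99 by DESeq2, 22 with no low-count filter, 22 under the replicate block, 35 without mutants 5 and 6, 45 without both shallow libraries and 3 to 16 with single libraries left out. For the mutant effect between stages 5 passed, against 42 by DESeq2 and 3 to 19 with single libraries left out. For the mutant effect between organs 5 passed, against 67 by DESeq2, 12 without both shallow libraries and 2 to 9 with single libraries left out. The causes were not tested.

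Signs turned only in differences that passed no test. Under the replicate block, Prelp turned to 0.018 (E13.5 lung) and Aspn to 0.023 (E18.5 lung), and tracheal Scx turned to -0.075, Tnmd to -1.14, Mkx to -0.10 and Dcn to -0.040. Without mutants 5 and 6, Aspn was 0.024 (E18.5 lung), and tracheal Scx was -0.050, Tnmd -1.10 and Mkx -0.017. Without both shallow libraries, Scx was -0.051, Tnmd -0.051 and Aspn 0.062 in the trachea, and the organ contrast of mutant effects for Dcn was 0.084. That contrast for Aspn was -0.014 by DESeq2, -0.012 with RLE size factors, -0.031 with no low-count filter and -0.11 under the replicate block.

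With single libraries left out, E13.5 lung ranges crossing 0 were -0.0070 to 0.14 for Dcn, -0.051 to 0.084 for Ogn and -0.13 to 0.060 for Prelp. In E18.5 lung they were -0.32 to 0.087 for Fmod, -0.0060 to 0.11 for Ogn, -0.11 to 0.050 for Aspn and -0.11 to 0.0063 for Prelp. In the trachea they were -0.14 to 0.21 for Scx, -0.42 to 0.86 for Tnmd, -0.15 to 0.19 for Mkx and -0.21 to 0.12 for Aspn. For the stage contrast of mutant effects they were -1.46 to 1.14 for Tnmd, -0.087 to 0.20 for Mkx, -0.15 to 0.27 for Fmod, -0.040 to 0.10 for Ogn and -0.12 to 0.082 for Prelp. For the organ contrast they were -0.26 to 0.076 for Mkx, -0.20 to 0.049 for Dcn and -0.13 to 0.21 for Aspn.

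Between control trachea and lung, the paired fit with the replicate block changed no call among the 10 genes. In simulated counts of the trachea, the test found 19.4% of genes changed 1.5-fold and 67.2% of those changed 2-fold. In those of E18.5 lung it found 80.6% and 95.5%. Changes were put only into genes with a mean of at least 5 CPM. These shares need not hold for members near or below that level, such as tracheal Scx, at 4.61 CPM in mutants and 4.45 CPM in controls.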

Other observations

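Lists of matrix and signalling genes other than those 10 were also read between E18.5 and E13.5 control lung. There edgeR called 74.7% of all genes, 37.4% higher and 37.3% lower at E18.5. Only the list of dense fibroblasts and adventitia had every gene called. The other counts were near or below the share of all genes, so they say little of those lists as sets. Of 8 genes of dense fibroblasts and adventitia, 7 rose and 1 fell, with a median log2 difference of 1.78. Of 19 other tendon and ligament genes tested, 8 rose and 1 fell, with a median of 0.81. Of the 10 fibril-forming and type VI collagens 5 rose and 2 fell, with a median of 0.81. Among 9 other small leucine-rich proteoglycans tested, 4 rose and 3 fell. Of 25 genes of glycosaminoglycan chain building, Bmp1 included, 9 rose and 7 fell, and of 11 genes of TGF-beta signalling, 4 rose and 4 fell.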
